A study of Brassica napus with 17 samples.

Results

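The comparison asks what trichostatin A (TSA), a histone deacetylase inhibitor, changed at day 2 in heat-stressed microspore cultures of Brassica napus (oilseed rape). It used 6 of the 17 libraries of the series, 3 per group, and they were chosen by their titles alone. All were of genotype DH12075, came from LEC1-GFP cultures and began as late unicellular microspores. The labels give microspores with embryogenic cells as the cell type of both groups, although for heat-only libraries this stands under the stage field and the stage under cell type. Both groups were held at 33 °C for 24 hours and then at 25 °C for 1 day. In the TSA group 0.5 µM TSA was present during the heat and was removed with the medium at its end. Each library was made from a pool of many microspores. Per the labels, heat alone served to start embryogenesis and heat with TSA to start callus. Day 0 microspores, which were untreated, and cultures of days 4 and 8 are described below only as levels or for following genes picked at day 2, but all 17 libraries shared the filter on low counts, the scaling and the estimate of spread. The labels conflict on the TSA dose of day 4, which is 0.5 µM by title and 0.05 µM by the treatment field. The day 8 TSA cultures had 0.05 µM and gave 2 libraries.

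A microspore is the immature male gametophyte, which normally divides asymmetrically and matures into pollen. Heat stress can divert it in B. napus to divide like a zygote and form a haploid embryo. Histone deacetylases take acetyl groups off histone tails, which is generally linked to closed chromatin and low transcription, and TSA blocks the zinc-dependent enzymes of this class. B. napus is an allotetraploid whose A and C subgenomes hold near-identical copies of most genes. Here the subgenome and chromosome were read from the gene ID, so that BnaC04g00460D lies on chromosome 4 of the C subgenome. The deposited files and the reference used here give nearly all IDs no name or function. The labelled cell types could therefore not be checked against marker genes, and the genes below are described by ID, chromosome and level.

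The 6 libraries held 13707782 to 28680600 counts. Levels are given in CPM (a gene's share of the library's counts, scaled to a fixed total) after TMM scaling, which corrects library sizes for differences in RNA composition. The TMM factors were 0.753, 0.858 and 0.879 in heat-only replicates 1 to 3, and 1.36, 1.30 and 1.29 with TSA. Across genes, log2 CPM correlated at 0.976 to 0.996 within heat-only libraries, at 0.966 to 0.990 within TSA libraries and at 0.592 to 0.656 between the groups. Genes are not independent replicates. Heat-only replicates 2 and 3 were far closer to each other than any other pair. Their counts differed with a chi-square per gene of 1.71, where sampling noise alone gives about 1, against 27.7 and 29.5 for heat-only replicate 1 and 8.33 to 21.4 among TSA libraries. They differed beyond sampling noise and were kept as separate libraries, but this does not show that they came from separate cultures. If they share a culture, n is 2 for heat-only day 2 wherever 3 is given. With their counts summed as 1 library, 39135 genes were called in place of 42701. The series design calls the replicates biological, and the labels do not say which cultures or donor plants they came from. The labels name a sequencing run for TSA day 2 and none for heat-only day 2, so run and TSA cannot be told apart here.

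Each of 64330 genes was tested with edgeR's quasi-likelihood test, and those with a Benjamini-Hochberg adjusted p under 0.05 count as called. Of the tested genes 66.4% passed, with 34.8% higher in TSA cultures and 31.6% lower. A single call is therefore common, and the genes described first are those with the largest fold changes. Such a gene had to average 50 CPM or more in one group, hold at least 10 counts in the other and show no overlap between the 3 and 3 libraries. Among all tested genes, 38.0% had every TSA library above every heat-only library and 35.3% the reverse. The full rule was met by 1267 rising and 2805 falling genes.

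The 8 rising genes with the largest fold changes went from under 1 CPM in every heat-only library to between 21.8 and 314 CPM in every TSA library. BnaA03g20340D was at 0.298, 0.163 and 0.0911 CPM in heat-only replicates 1 to 3 and at 99.3, 110 and 95.3 CPM with TSA. BnaA10g19740D was at 0.372, 0.0813 and 0.228 CPM without and at 110, 151 and 105 CPM with TSA. These genes sat at a few counts per library in heat-only cultures and at an even, high level in all 3 TSA libraries. BnaA03g45150D was at 0.745, 0.285 and 0.228 CPM without and at 157, 253 and 226 CPM with TSA. BnaA09g19480D was at 0.819, 0.203 and 0.501 CPM without and at 145, 314 and 258 CPM with TSA. BnaA06g11990D and BnaA02g22850D had means of 0.414 and 0.506 CPM in heat-only cultures and of 187 and 209 CPM with TSA. BnaA03g36740D was the least even, at 82.0, 132 and 21.8 CPM with TSA against 0.372, 0.0407 and 0.182 CPM without. BnaC04g48580D was at 36.5, 100 and 78.2 CPM with TSA and 0.298, 0.163 and 0.0911 CPM without. The groups did not overlap for any of the 8, as the rule required, and the lowest TSA library of BnaA03g36740D was replicate 3.

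The log2 fold changes of these 8 genes ran from 8.68 ± 0.538 (SE) for BnaC04g48580D to 9.19 ± 0.441 (SE) for BnaA03g20340D. Their adjusted p-values ran from 1.24e-10 to 2.48e-06 (edgeR quasi-likelihood test). Their heat-only counts, 1 to 12 per library, leave the size of the folds imprecise. Without heat-only replicate 1, BnaA06g11990D stood at 9.76, BnaA02g22850D at 9.43 and BnaA03g36740D at 9.47 on the log2 scale, and without TSA replicate 2 BnaA03g36740D stood at 8.20. Before culture, at day 0, all 8 were low too, with means between 0.012 and 0.241 CPM. Of the 8, 7 lie on A chromosomes and 1 on a C chromosome, and 3 of them on A3. Among all 64330 tested genes 30665 have A IDs and 4352 lie on A3. With 8 genes picked by fold, the split was not tested. The day 4 libraries were in neither group compared, though they entered the filter and the fit. At day 4 all 8 were called higher with TSA, where 40.3% of all tested genes were. Of the 1534 genes called at least 6 log2 units higher at day 2, 84.35% were. The day 4 log2 fold changes of the 8 genes ran from 4.67 to 7.60. BnaA09g19480D reached a mean of 501 ± 71.8 CPM with TSA at day 4 and BnaA03g36740D 427 ± 287 CPM (SD, n = 3 each). At day 8, with the lower dose and 2 libraries, the means of the 8 genes were 0.0573 to 0.785 CPM, so all means were again under 1 CPM.

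The 8 falling genes with the largest fold changes went from 222.5 CPM or more in every heat-only library to about 1 CPM or less with TSA. BnaA03g40500D was at 2108, 1140 and 1190 CPM in heat-only replicates 1 to 3 and at 0.118, 0.737 and 0.851 CPM with TSA. BnaC06g18400D was at 1215, 841 and 838 CPM without and at 0.147, 0.153 and 1.02 CPM with TSA. BnaC03g34350D was at 701, 337 and 320 CPM without and at 0.0589, 0.368 and 0.114 CPM with TSA. Heat-only replicate 1 was the highest library for each of these. BnaA03g29100D, BnaA03g05190D and BnaA02g04760D had heat-only means of 312, 322 and 284 CPM and TSA means of 0.118, 0.158 and 0.128 CPM. They too were highest in heat-only replicate 1. The remaining 2 genes showed the opposite order among heat-only libraries. BnaC04g00460D was at 721, 1366 and 1351 CPM and BnaC04g53190D at 223, 357 and 352 CPM, with TSA means of 0.523 and 0.109 CPM. Both lie in stretches of C4 where heat-only replicate 1 was low throughout, as described further on.

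The log2 fold changes of the falling genes ran from -11.4 ± 1.23 (SE) for BnaA03g40500D to -10.97 ± 1.01 (SE) for BnaA03g05190D. Their adjusted p-values ran from 9.98e-08 to 2.59e-06 (edgeR quasi-likelihood test). Without TSA replicate 3 BnaC06g18400D stood at -12.59, and without TSA replicate 2 BnaC03g34350D stood at -12.38. At day 0 the means of the 8 genes were 0.0599 to 0.447 CPM, close to the level seen with TSA at day 2. All 8 were called lower with TSA in the day 4 libraries, where 27.3% of all tested genes were. Of the 2342 genes called at least 6 log2 units lower at day 2, 99.5% were. The means of the 8 genes at day 4 were 1137 to 7849 CPM in heat-only cultures and 2.17 to 19.97 CPM with TSA. The 8 rising and 8 falling genes are plotted by library with the most abundant genes of each group.

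**Figure D1:**
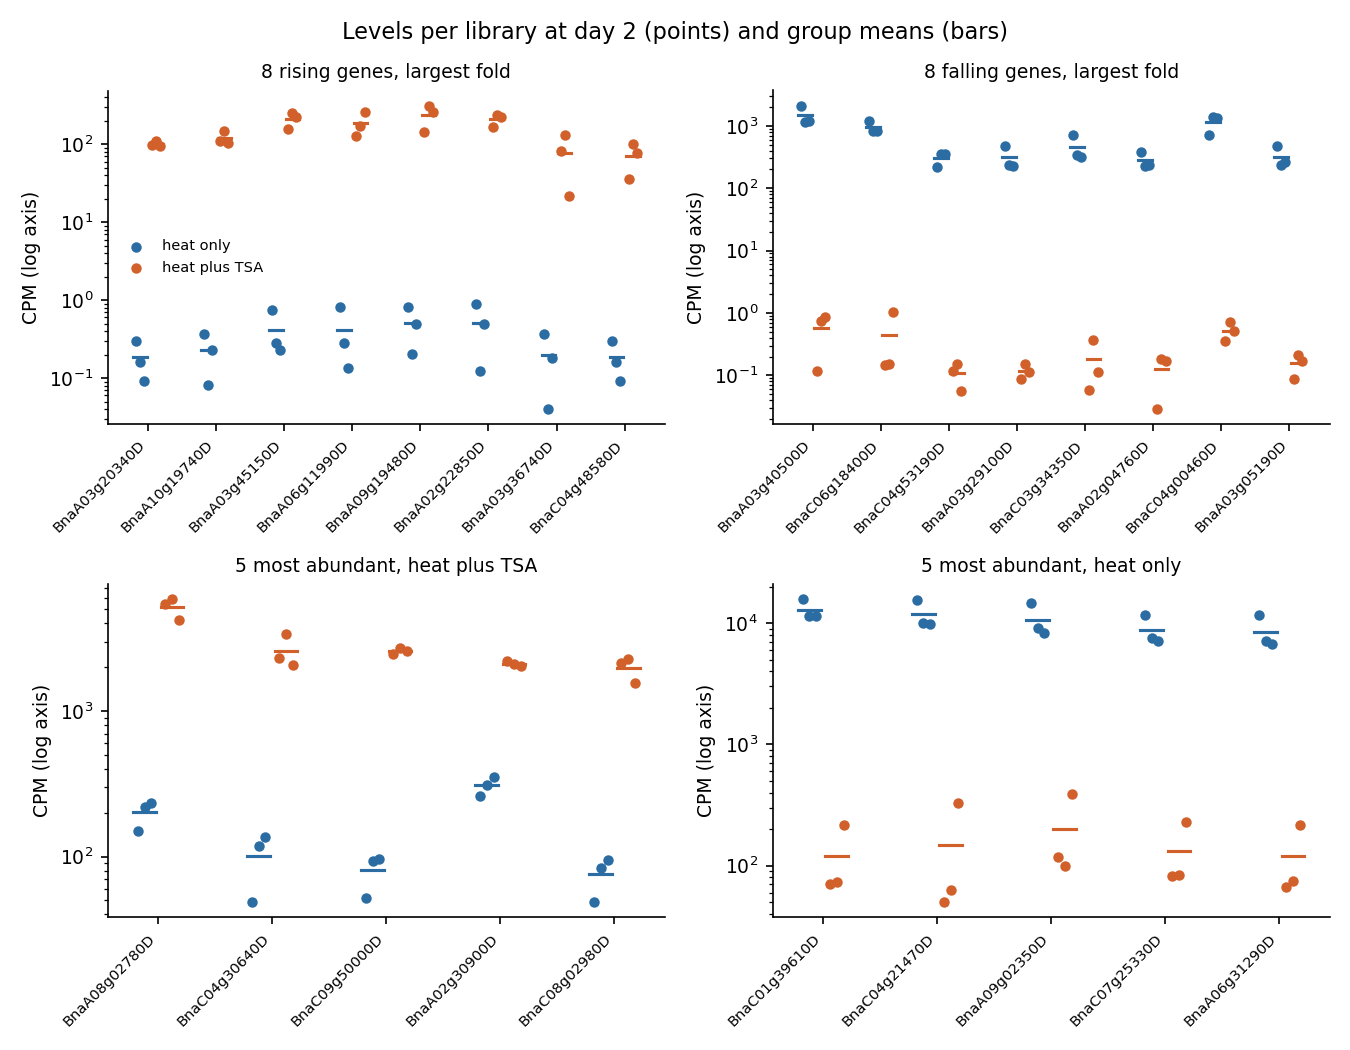
Level of single genes at day 2 in CPM on a log axis, with 1 point per library (3 heat only in blue, 3 heat plus TSA in orange, replicates 1 to 3 from left to right) and bars at the group means. The groups are apart for every gene, which the rule required of the rising and falling genes with the largest folds. In the lower right panel TSA replicate 3 lies above TSA replicates 1 and 2 for all 5 genes.

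The 5 genes with the most counts, not corrected for gene length, were different genes in each group. In TSA cultures BnaA08g02780D led, at 5430, 5865 and 4207 CPM, and it held 0.678% of their counts on average. It was at 149, 219 and 235 CPM in heat-only cultures, a 25.7-fold difference of means (log2 4.69 ± 0.399 SE). BnaC04g30640D followed at 2313, 3370 and 2067 CPM, against 49.1, 118 and 136 CPM without TSA. BnaC09g50000D was at 2446, 2710 and 2567 CPM, against 52.1, 93.5 and 95.9 CPM. Heat-only replicate 1 was the lowest of its group for each of these 3 genes. BnaA02g30900D, at a mean of 2106 CPM with TSA, changed least of the 5, from 308 CPM (log2 2.77 ± 0.292 SE). BnaC08g02980D went from 75.9 to 1985 CPM. All 5 were called higher, with adjusted p-values of 3.20e-08, 6.21e-07, 3.04e-04, 3.68e-07 and 5.30e-08 in the order given (edgeR quasi-likelihood test). At day 0, BnaA08g02780D and BnaA02g30900D were at 112 and 111 CPM, while BnaC04g30640D, BnaC09g50000D and BnaC08g02980D were at 1.53, 0.635 and 0.893 CPM. At day 8 BnaA08g02780D was still at a mean of 3551 ± 515 CPM (SD, n = 2). BnaC09g50000D was at 23.8 ± 32.2 CPM (SD, n = 2), so its 2 libraries were far apart.

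The 5 leading genes of heat-only cultures were at 6766 CPM or more in each library. BnaC01g39610D was at 15740, 11460 and 11480 CPM and held 1.06% of counts on average. With TSA it was at 70.3, 74.0 and 217 CPM. BnaC04g21470D was at 15450, 10100 and 9894 CPM without and at 50.1, 62.7 and 327 CPM with TSA. BnaA09g02350D was at 14680, 9042 and 8252 CPM without and at 117, 98.8 and 391 CPM with TSA. Heat-only replicate 1 was highest and TSA replicate 3 was highest within its group for each of these genes. BnaC07g25330D and BnaA06g31290D had means of 8755 and 8484 CPM without TSA and of 131 and 119 CPM with it. The log2 fold changes of the 5 ran from -6.74 ± 0.965 (SE) to -5.72 ± 0.876 (SE), with adjusted p-values of 4.24e-06 to 4.05e-05 (edgeR quasi-likelihood test). At day 0 they were at 50.2 to 277 CPM, so these genes had a measurable level before culture. Without TSA replicate 3 the 5 log2 fold changes ran from -7.71 to -6.62, and all stayed called lower.

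TSA replicate 3 was higher than the other TSA libraries across the genes most abundant in heat-only cultures. Among the top 100 genes by heat-only level, the median gene was 3.85-fold higher in TSA replicate 3 than in the mean of TSA replicates 1 and 2. These genes held 0.807%, 0.749% and 1.31% of counts in TSA replicates 1 to 3. In heat-only replicates 1 to 3 they held 27.1%, 20.6% and 20.4%. The top 100 genes by TSA level held 9.89%, 10.9% and 9.39% in TSA replicates 1 to 3 and 1.51% to 1.63% in heat-only libraries. Of the 100 from heat-only cultures, 97 were called lower with TSA and 0 higher. Of the 100 from TSA cultures, 80 were called higher and 0 lower. Over all tested genes 31.6% were called lower and 34.8% higher. Each list was chosen by the level in one of the compared groups, so its direction was set in part by that choice. In bulk RNA, fewer cells of a type and less RNA per cell cannot be told apart.

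Some genes had no count at all in one group. They could pass the filter on low counts only through libraries outside that group, so the shares called below depend on that filter. Of 1860 tested genes with no count in any heat-only library, 1204 (64.7%) were called, near the 66.4% of all tested genes. Of these, 312 reached 1 CPM and 10 reached 10 CPM with TSA. Of 1113 with no count in any TSA library, 631 (56.7%) were called, and 355 of them reached 1 CPM and 117 reached 10 CPM in heat-only cultures. BnaC02g45610D was at 256, 180 and 173 CPM in heat-only libraries and at 0 in all TSA libraries. Against the level of 3 counts over the 3 TSA libraries, 0.0356 CPM, it was at least 5698-fold lower with TSA. BnaA02g13040D (162, 111 and 108 CPM) and BnaC02g37480D (71.7, 128 and 141 CPM) were at least 3563-fold and 3183-fold lower. BnaC02g37480D lies in a stretch of C2 where heat-only replicate 1 was low. BnaC07g51310D was at 11.2, 15.04 and 50.2 CPM with TSA, at least 509-fold higher than the 3-count level of heat-only cultures, 0.0500 CPM. BnaA10g08000D was at 8.00, 11.4 and 55.7 CPM, and BnaCnng77500D at 9.74, 14.5 and 24.1 CPM. TSA replicate 3 was the highest library for all 3 of these, and without it the bounds were 262, 193.5 and 242-fold in place of 509, 500 and 322-fold. Of the 1204 genes, 610 had no count at day 0 either, and of the 631, 369 had none.

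The median log2 fold change was 2.55 among genes called higher and -1.60 among genes called lower, while over all tested genes it was 0.06. Of the calls, 18870 genes were at least 1 log2 unit higher and 14579 at least 1 log2 unit lower, which is 29.3% and 22.7% of all tested genes. Up to 16-fold, more genes rose than fell: 5516 rose and 4236 fell by at least that much. Beyond 32-fold the order turned, with 2933 rising and 3154 falling. At 256-fold it was 316 against 1057, and at 1024-fold 32 against 384. The largest folds rest on very few counts in the lower group, and the fitted values there depend on the prior count. The smallest called changes were 0.30 up and -0.28 down on the log2 scale. The balance of directions depends on the scaling, since 72.8% of calls were higher with library totals alone against 52.4% with TMM. Library totals moved the median of all genes to 0.72.

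**Figure D2:**
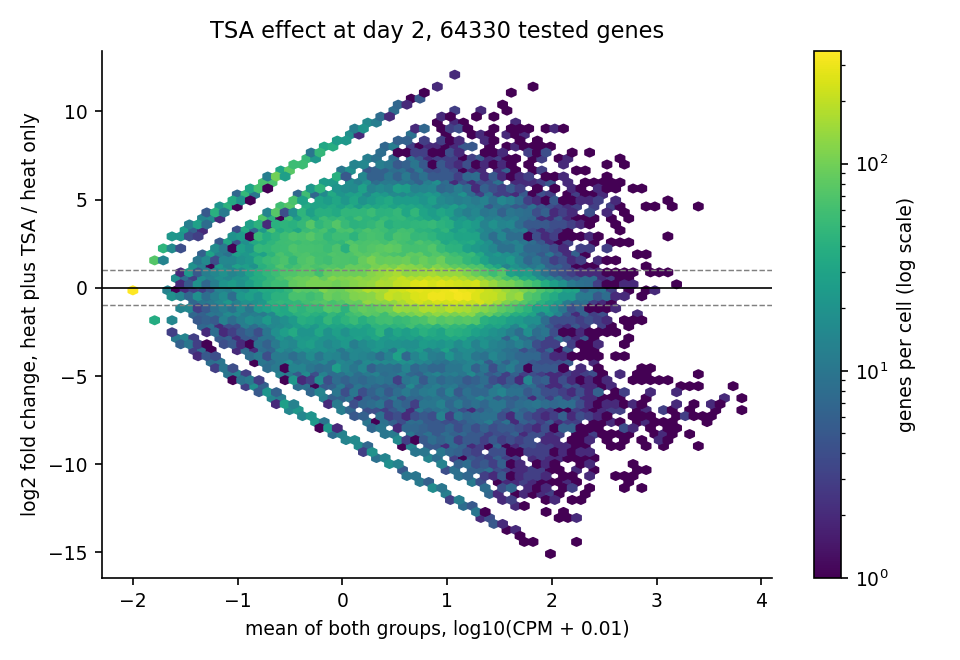
Log2 fold change of heat plus TSA over heat only (vertical) against the mean level of both groups (horizontal, log10 of CPM + 0.01) for 64330 genes, coloured by the number of genes per cell. Dashed lines mark 1 log2 unit, and genes lie above and below 0 at low, middle and high levels.

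Among genes called lower at day 2, those with larger changes were more often called lower at day 4, in libraries that shared no sample with the day 2 comparison but entered the same fit. Of 2342 genes at least 6 log2 units lower with TSA at day 2, 99.5% were called lower and 0 called higher at day 4. Their median level was 23.1 CPM in heat-only day 2, 61.0 CPM in heat-only day 4, 0.0586 CPM with TSA at day 2 and 0.309 CPM with TSA at day 4. Of the 5759 genes less than 1 log2 unit lower at day 2, 38.7% were called lower and 15.3% higher at day 4. The background at day 4 was 27.3% lower and 40.3% higher. For genes called higher at day 2 the share called higher at day 4 ran from 76.0% to 85.4% across 5 classes of size and did not order by size. The 1534 genes at least 6 log2 units higher had medians of 0 CPM in heat-only day 2, 2.36 CPM with TSA at day 2, 2.47 CPM with TSA at day 4 and 0.0531 CPM with TSA at day 8. Their counterparts at 1 to 2 log2 units had medians of 5.30, 5.70 and 5.08 CPM in the same TSA groups.

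Among genes at 1 to 1000 CPM in untreated microspores, the share called higher with TSA was smaller in classes of higher day 0 level. The day 0 libraries were in neither group compared, though they entered the filter and the fit. Of 22703 genes at 1 to 10 CPM, 30.1% were called higher and 34.1% lower. Of 15470 genes at 10 to 100 CPM, 21.1% were called higher and 43.0% lower, with a median of -0.28. Of 997 genes at 100 to 1000 CPM, 14.2% were called higher, 36.2% lower and 49.6% not at all. Without the filter on low counts these 3 classes held the same numbers of genes, and 32.0%, 24.6% and 18.7% were called higher. The lowest genes at day 0 were tested where other libraries brought them past the filter, so their shares depend on it. Of 11789 tested genes under 0.1 CPM at day 0, 53.7% were called higher, but without the filter it was 23.2% of 33706. Genes at 10 to 100 CPM were measured more precisely, with a median SE of 0.184 against 0.775 under 0.1 CPM. The size of the calls differed with it, as 95% of calls exceeded 0.44 log2 units in the first class and 1.91 in the second.

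**Figure D3:**
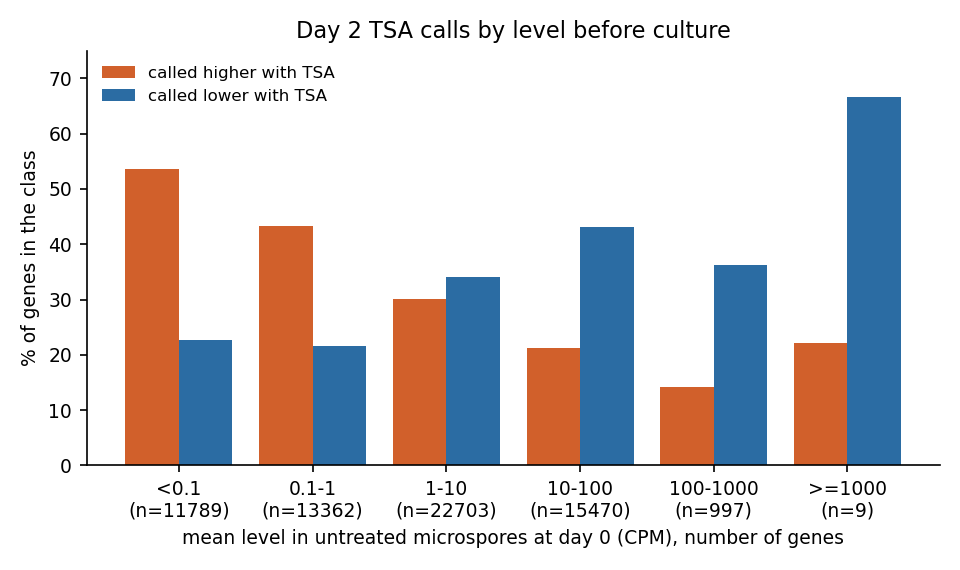
Share of tested genes called higher (orange) or lower (blue) with TSA at day 2, in % of each class, by the mean level of the gene in day 0 microspores in CPM, with the number of genes under each class. The orange bars go from 30.1% at 1 to 10 CPM to 14.2% at 100 to 1000 CPM. The bars under 1 CPM depend on the filter on low counts, and the last class holds 9 genes.

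Counts were spread over more genes in TSA cultures. The most abundant genes that together held 50% of counts numbered 1154, 1796 and 1865 in heat-only replicates 1 to 3 and 3778, 3598 and 3638 in TSA replicates 1 to 3. The groups did not overlap, and heat-only replicate 1 was the most concentrated library. The difference of means was 2066 genes, from 1605 ± 392 to 3671 ± 94.5 (SD, n = 3 each). An exact permutation test, two-sided, gave p = 0.1, the lowest value that 3 against 3 can reach. Day 0 microspores had 3713, 3704 and 3204 such genes, within or below the range with TSA. Day 0 replicate 3, with the lowest of these values, was shallow, at 2716279 counts against 27496445 and 20851018 in replicates 1 and 2. At day 4 heat-only libraries had 415, 316 and 352 such genes, and TSA libraries 3032, 2825 and 3161. For 90% of counts the day 2 means were 17212 and 23254 genes.

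**Figure D4:**
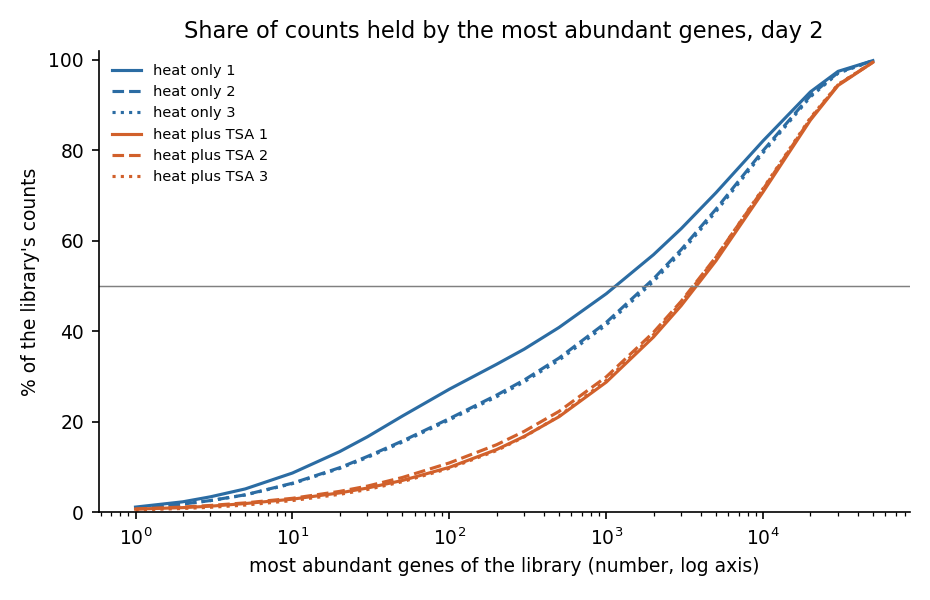
Share of a library's counts in % (vertical) held by its most abundant genes (number on a log axis), for 3 heat-only (blue) and 3 TSA libraries (orange) of day 2. The TSA curves lie together and to the right of the heat-only curves, which cross the 50% line at 1154 to 1865 genes.

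The TSA effect differed in balance between the subgenomes and among chromosomes by small amounts. On A chromosomes and A unplaced IDs, 36.5% of 30665 tested genes were called higher and 30.5% lower. On C it was 33.2% and 32.7% of 33471. Of counts on A or C IDs, the A share was 48.9%, 47.9% and 47.9% in heat-only replicates 1 to 3 and 49.5%, 49.6% and 49.8% with TSA. The groups did not overlap, and the difference came to 1.40 points of percent (exact permutation test, p = 0.1, and 0.1 after adjustment over 2 library measures, n = 3 each). It was 0.98 points on numbered chromosomes alone (p = 0.2, exact permutation) and 0.58 points once the 100 most abundant genes of each group were left out (p = 0.4, exact permutation), and the libraries then overlapped. The A share is not given without the stretches described below, which lie mostly on C and where heat-only replicates 2 and 3 stood above replicate 1. Among 19 numbered chromosomes the share called higher ran from 28.9% on C4 to 38.0% on A5, and the share called lower from 28.2% on A6 to 37.6% on C4. C2 stood next to C4, with 30.96% higher and 35.1% lower. These values were not tested against each other, since genes on a chromosome are not independent samples.

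Part of the lower calls on C4 and C2 fell in stretches where the heat-only libraries themselves disagreed. In 1422 windows of 30 neighbouring genes of at least 1 CPM, heat-only replicate 1 differed from the mean of replicates 2 and 3 by a median of at least 0.6 log2 units in 32 windows. In all 32 it was lower. They lay on C2 (15 windows), C4 (11), A7 (3) and C7 (3), mostly side by side, and no TSA library reached that limit against the other TSA libraries in any window. On C4 the windows were BnaC04g00010D to BnaC04g06900D and BnaC04g51810D to BnaC04g53340D. Over the C4 windows, heat-only replicates 2 and 3 were above the TSA mean by a median of 1.86 and 1.83 log2 units, and heat-only replicate 1 by 0.31. In these windows 54.9% of 454 tested genes were called lower with TSA, against 34.8% on the rest of C4. Over all 32 windows the medians were 1.10 and 1.09 for heat-only replicates 2 and 3 and 0.07 for replicate 1. The size of the difference between the groups there rests on replicates 2 and 3, and its cause was not tested. Heat-only replicate 1 of day 4 was lower than replicates 2 and 3 of day 4 in the same windows, by a median of 0.97 log2 units. Over the C4 windows, day 0 libraries were 0.39 to 0.69 log2 units above the TSA day 2 mean and TSA day 8 libraries stood at -1.46 and -1.34 against it. On C2 TSA replicate 3 was below the other TSA libraries, at a median of -0.37. Outside the 32 windows there were 41756 calls, of which 22033 were higher and 19723 lower.

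**Figure D5:**
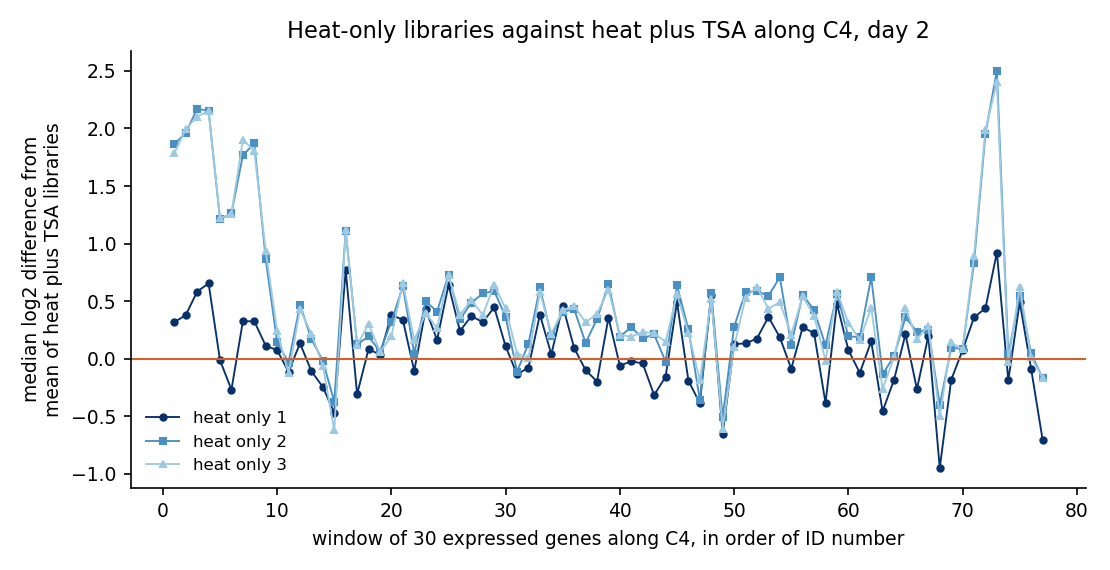
Median log2 difference between each heat-only library of day 2 and the mean of the 3 TSA libraries (vertical), in windows of 30 expressed genes along C4 in the order of their ID numbers (horizontal), with TSA at 0. Heat-only replicates 2 and 3 lie together and well above replicate 1 in windows at the start and near the end of C4, while the 3 libraries lie closer in between.

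Genes next to each other were slightly more alike in their TSA effect than genes farther apart. Of genes whose neighbour in ID order was called higher, 38.7% were called higher, against 34.8% of all genes on numbered chromosomes. For lower calls it was 34.6% against 31.7%. For genes 10 apart the shares were 35.5% and 31.8%. The log2 fold changes of neighbours correlated at 0.09 over 57368 pairs and those of genes 10 apart at 0.00, given as a description. The C4 and C2 stretches are among these neighbours. In windows of 30 tested genes the median log2 fold change ran from -2.39 (BnaC04g52460D to BnaC04g53030D, 24 of 30 called lower) to 2.15 (BnaC01g06350D to BnaC01g06800D, 20 of 30 called higher and 2 lower). All 5 lowest of the 1904 windows lay on C4, in the stretches just described. The 5 highest lay on C1, A10, A6, A1 and A2.

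Some abundant genes differed little. Of 1513 genes at 50 CPM or more in both groups, 685 were called (45.3%, against 66.4% of all tested genes) and 1010 had a 95% interval of the log2 fold change within 1 log2 unit of 0. This set was chosen by the level in both compared groups. Genes under 50 CPM in either group were left out, so its lower share of calls was set in part by that choice. BnaC09g37460D was at 133, 165 and 170 CPM without and at 164, 150 and 154 CPM with TSA. BnaAnng10340D was at 97.5, 116 and 111 CPM without and at 105, 104 and 115 CPM with TSA. BnaA07g38170D was at 56.2, 50.3 and 49.1 CPM without and at 49.4, 50.4 and 55.9 CPM with TSA. These 3 had the smallest fold changes by choice, and their 95% intervals all lay within 0.32 log2 units of 0. With library totals each was 0.65 to 0.67 log2 units higher and called, so steadiness is relative to TMM scaling.

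Only 2 of the 3347 IDs found in the reference carried another name. KCP1 (BnaA02g32290D), described in B. napus as a protein with a kinase-inducible domain that binds a histone deacetylase, was at 0.149, 0.163 and 0.182 CPM in heat-only replicates 1 to 3, from 2, 4 and 4 counts. With TSA it was at 1.77, 1.78 and 2.04 CPM, from 60, 58 and 36 counts, so the groups were well apart at low depth. The log2 fold change was 3.43 ± 0.38 (SE) and its 95% interval 2.69 to 4.18. At day 0 KCP1 had a mean of 1.58 ± 0.528 CPM (SD, n = 3), close to the level seen with TSA at day 2. TR1 (BnaCnng15100D) was at 12.1, 8.26 and 9.66 CPM without and at 9.18, 8.99 and 11.3 CPM with TSA, and the groups overlapped. Its log2 fold change was -0.02 with a 95% interval from -0.45 to 0.41 (adjusted p = 0.941, edgeR quasi-likelihood test).

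The authors' deposited table lists this comparison too. Of 68491 genes in the authors' deposited table, 25728 were higher and 19778 lower at a false discovery rate under 0.05. Of the higher calls in the authors' deposited table among genes tested here, 89.8% were also called higher here, and these were 98.1% of the higher calls made here on shared genes. For lower calls the shares were 99.3% of the authors' deposited table and 93.3% of those made here. No gene was called in opposite directions. The fold changes in the authors' deposited table lay a median of 0.13 log2 units above those computed here. For BnaA03g20340D the authors' deposited table gives 9.24, for BnaA03g40500D -11.6 and for KCP1 3.41.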

How the data were processed

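For all 17 libraries the authors' deposited values are raw counts per gene, per the file headers. For aligner, counter, build and annotation, no name was found in the labels or headers. Log2 CPM values deposited by the authors were not used. They deposited, per the file headers, log2 fold changes with false discovery rates, which are adjusted p-values. Limma is named in the submitters' processing notes. Per the labels' protocols, TruSeq libraries came from DNase-treated RNA.

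Count columns were matched to samples by title. Of 101040 IDs, 64330 passed filterByExpr. The test was edgeR 4.0.16 (quasi-likelihood, robust, TMM, 1 coefficient per group over 17 libraries, two-sided) in R 4.3.3, with DESeq2 1.42.0 and limma 3.58.1 as alternatives. The edgeR test was checked on simulated counts in which few genes changed. RNA composition there was nearly the same in all groups, so the simulation could not check the scaling. The SE is the absolute log2 fold change over the square root of F, and intervals called 95% are 1.96 SE on each side. This multiplier takes no account of the limited degrees of freedom of the test, so these intervals are narrower than named. Intervals cover counting error and the spread between these libraries only. Floors cover counting error only, and the fold bounds set against them use the mean of the higher group without its spread. The 3-count level was 0.0883 to 0.223 CPM per library at day 2.

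Genes were named by rule, namely the 8 largest folds per direction, the 5 most abundant per group, the 3 most abundant per direction with no count in the other group, the 3 smallest folds at 50 CPM or more, and both IDs with another name. Parts of the rule and all lists that need product names could not be applied. ID numbers correlated with Da-Ae reference order at 0.779 to 0.977 per chromosome (Spearman), and were used as gene order. Not all matched IDs lay on the chromosome of the same name in that reference. The share was lowest for A2 (71 of 97) and A5 (70 of 94) and highest for A3 (188 of 196). Copies of a gene in A and C may share reads, which leaves single-copy levels uncertain. The comparison, genes and lists were chosen with earlier results of these data known. The stretches where a library stands apart, the summed library and the replicate block on 6 libraries were added after seeing the data.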

Additional observations from a re-analysis of the deposited data

How the results depend on the processing

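The count of called genes, 42701, ran from 38880 to 43830 over the settings that kept the 6 compared libraries and no fold limit. Among fits on all 17 libraries the lowest count was 42063, with at least 10 counts asked in 3 or more libraries. A limit of 1 log2 unit left 33449. Leaving out single libraries gave 38306 to 40994 calls, 20597 to 22093 higher and 17556 to 19343 lower. With the replicate block 42707 genes were called, and with the replicate block on the 6 compared libraries alone 38880; the block changed no call of a named gene. Same-numbered libraries of the groups did not deviate together (correlations of -0.0901, -0.0465 and -0.0142), so the numbers were not taken as pairs. DESeq2 called 43060 and limma 43650. Library totals gave 11936 genes lower in place of 20338 and widened the gap between the highest and lowest chromosome in the share called higher from 9.14 to 12.7 percentage points; the gap in the share called lower went from 9.45 to 7.60, and the cause was not tested. With heat-only replicates 2 and 3 summed, the differences below were 2180 genes and 1.25 percentage points. Under library totals BnaC09g37460D (0.65) and TR1 (0.65) turned from just under 0 to called higher, and BnaAnng10340D (0.65) and BnaA07g38170D (0.67) became called. These 4 also changed sign without a call 27 times in other fits, with values from -0.05 to 0.22. The other 33 named genes kept direction and call in every fit that held them. Lists by product name were not run. The difference in genes holding 50% of counts ran from 1841 to 2196, and that in the A share from 1.23 to 1.72 percentage points, without single libraries. Shallow counts limit folds of genes under about 0.2 CPM.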
